A study of Mus musculus with 14 samples.

Results

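Genes that mark oligodendrocyte precursors and the first steps of their differentiation were followed across all groups of the series: Pdgfra, Cspg4, Vcan, Matn4, Neu4, Lhfpl3, C1ql1, Gpr17, Enpp6 and Bmp4. They were taken by name from the gene count tables, with earlier results of these data known, and they are 10 of the 23337 gene symbols there. Genes of mature myelin were kept apart as a separate list of 15. All 10 had enough counts to enter every test below, so no member was lost to the filter on low counts.

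RNA was sequenced from dissected striatum and cerebellum of 6-month-old mice with a C57Bl/6 background. The groups were wild-type (WT) striatum (3 libraries), striatum with conditional knockout (cKO) of Thap1 (3 libraries), WT cerebellum (4 libraries) and Thap1 cKO cerebellum (4 libraries), and the WT mice were littermates of the cKO mice. THAP1, a DNA-binding protein with a zinc-dependent THAP domain, is the product of the gene mutated in dystonia DYT6. Which cells express Cre and which stretch of Thap1 is deleted is not given in the sources used here. Whether libraries come from separate animals is likewise not stated, and the p-values therefore cover only the variation among the sequenced libraries.

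Oligodendrocyte precursors are the dividing glia from which myelinating oligodendrocytes are formed in development and, at a lower rate, in adult brain. They depend on platelet-derived growth factor A acting through PDGFRA, carry the proteoglycan NG2 (Cspg4) on their surface and lie in a matrix rich in versican (Vcan). When a precursor commits to differentiation it passes through a short stage with GPR17 and then ENPP6, and it silences Pdgfra and Cspg4 as the myelin genes come on. BMP4 is a ligand that holds precursors back from this step.

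The genes are spread over 9 chromosomes on GRCm38 (the assembly called mm10), with Pdgfra and Lhfpl3 sharing chromosome 5. In the GENCODE vM21 annotation Pdgfra lies at chr5:75152292-75198215 on the plus strand, Enpp6 at chr8:46986887-47096762 on the plus strand, Vcan at chr13:89655312-89742509 on the minus strand and C1ql1 at chr11:102939264-102946688 on the minus strand. Exons of 4 members overlap an exon of a counted gene on the opposite strand, over 567 bases for Lhfpl3, 188 for Gpr17 (with Lims2), 149 for Matn4 (with Rbpjl) and 89 for Bmp4. Exons of Pdgfra overlap opposite-strand exons of Gm42802 (456 bases) and Gm42803 (166 bases), which are not among the counted gene symbols. Whether the counting used strand is not given in the sources used here, so reads in all those stretches may belong to either gene.

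Sequences upstream of the transcription start are shown for the gene called in cerebellum (Pdgfra), for the gene with the smallest p in striatum (Enpp6) and for the one gene whose upstream windows hold the letters of the THAP1 site consensus (Matn4). Each is the 250 bases before a RefSeq start on GRCm38.p6, written 5′ to 3′ on the strand of the gene. All 3 stretches lie outside the transcribed part of the gene in GENCODE vM21. Capitals mark the match to TNNGGGCA, which was searched on both strands.

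Pdgfra, chr5:75152001-75152250, plus strand: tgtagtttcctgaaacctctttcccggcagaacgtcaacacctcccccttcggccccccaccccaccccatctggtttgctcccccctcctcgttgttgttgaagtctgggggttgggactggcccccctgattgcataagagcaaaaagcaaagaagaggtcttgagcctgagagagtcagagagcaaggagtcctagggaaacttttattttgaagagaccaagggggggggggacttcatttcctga

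Enpp6, chr8:46986637-46986886, plus strand: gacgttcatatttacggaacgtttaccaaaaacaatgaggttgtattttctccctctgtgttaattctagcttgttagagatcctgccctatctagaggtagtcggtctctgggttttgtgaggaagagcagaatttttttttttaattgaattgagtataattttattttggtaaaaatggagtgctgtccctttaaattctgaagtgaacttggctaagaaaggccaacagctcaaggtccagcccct

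Matn4, chr2:164405161-164405410, minus strand: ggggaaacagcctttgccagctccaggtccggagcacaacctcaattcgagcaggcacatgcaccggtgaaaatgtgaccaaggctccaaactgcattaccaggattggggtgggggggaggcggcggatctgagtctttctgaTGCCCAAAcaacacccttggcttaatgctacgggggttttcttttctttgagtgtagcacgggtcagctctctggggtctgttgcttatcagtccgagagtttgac

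RefSeq promoters were found for 8 of the 10 genes, with 9 starts between them. Windows of 300 bases around a start (250 before and 50 after) held a match in 13.9% of 32851 promoters, and among the members in both starts of Matn4 and in none of the other 7 windows. The match printed above lies 106 bases before its start and on the strand opposite to the gene. A match of these letters is a description of the sequence, and its absence from a window says nothing about binding of the factor.

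Striatal libraries held 12595941 to 14258141 counts each and cerebellar libraries 19458954 to 28099205. Levels are given as CPM, the count of a gene relative to its library total, scaled by TMM factors within a tissue. Thap1, as a check of the labels, stood at 13.2, 14.5 and 15.3 CPM in WT striatum and 5.25, 7.65 and 3.77 in cKO striatum, and at 8.15 to 10.5 CPM in WT cerebellum and 6.85 to 7.79 in cKO cerebellum, without overlap in either tissue. WT striatum replicate 1 stood apart from all other striatal libraries on the first principal component, which held 49.1% of the striatal variance. By Xist and Y-linked counts each striatal group held 1 male and 2 female libraries, and each cerebellar group 2 and 2. The summed CPM of 12 choroid plexus and ependyma genes ran from 76.6 to 89.7 in WT striatum and from 94.6 to 248 in cKO striatum, and from 57.8 to 2248 in WT cerebellum and from 778 to 3675 in cKO cerebellum. Its part in the results below was not tested.

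In striatum none of the 10 precursor genes differed between genotypes at an adjusted p under 0.05, while 6 of 15 genes of mature myelin were called lower in cKO. Enpp6, at 62.5% of its WT level, C1ql1, at 73.3%, and Vcan, at 67.3%, had the largest differences, all towards lower values in cKO. In cerebellum Pdgfra rose to 120% of its WT level in cKO, and it was the only member called. The remaining 9 members were not called in cerebellum, with differences from -0.26 to 0.47 on the log2 scale. In bulk tissue a smaller number of precursors and less RNA per precursor cannot be told apart, and the same holds for higher levels.

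Calls rest on edgeR's quasi-likelihood test within a tissue, with Benjamini-Hochberg adjustment over all genes tested, and log2 fold changes are cKO minus WT with their standard error (SE). In striatum 0 of the 10 members were called, against 0.384% of all 14080 genes tested, 0.0639% higher and 0.32% lower. At an unadjusted p under 0.05 edgeR gave 3 members (C1ql1, Enpp6 and Vcan), DESeq2 gave 2 and limma-voom gave 3, and neither of the other tools called a member after adjustment. By edgeR 7.24% of all striatal genes had an unadjusted p under 0.05, by DESeq2 5.85% and by limma-voom 9.4%. In cerebellum 1 of 10 members was called, against 7.59% of 14775 genes, 2.63% higher and 4.96% lower. DESeq2 and limma-voom also called 1 member there. Thap1 itself was not called in striatum (-1.36, SE 0.231, edgeR adjusted p = 0.0562). In cerebellum it was called (-0.34, SE 0.1, edgeR adjusted p = 0.0488).

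**Figure D1:**
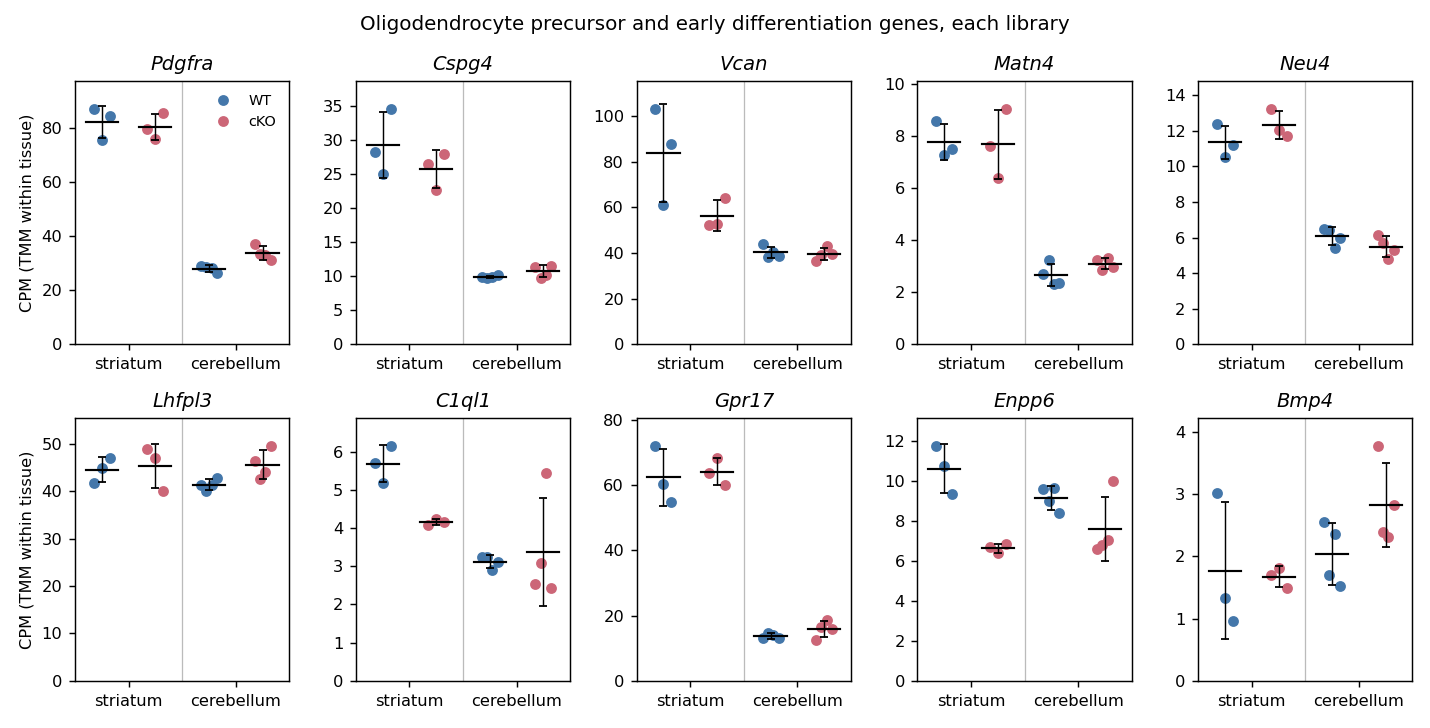
CPM of each of the 10 genes (y axis, linear, from 0) in every library, with WT in blue and cKO in red for striatum and cerebellum (x axis); horizontal bars are group means and vertical bars 1 SD. Enpp6 and C1ql1 separate the striatal genotypes without overlap and Pdgfra the cerebellar ones, while most other groups overlap.

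Pdgfra encodes the PDGF-A receptor on which precursors depend. In striatum it stood at 87.1, 75.8 and 84.6 CPM in the WT libraries and at 79.9, 75.9 and 85.6 in the cKO libraries. The striatal groups covered nearly the same range, with a log2 fold change of -0.04 (SE 0.0931, edgeR adjusted p = 0.924). The cerebellar WT libraries held 29.0, 28.7, 28.1 and 26.4 CPM and the cKO libraries 37.2, 33.5, 32.9 and 31.1. Every cerebellar cKO library lay above every WT library, a difference of 0.26 on the log2 scale (SE 0.0581, edgeR adjusted p = 0.00982). Over the 8 fits that each left out 1 cerebellar library Pdgfra was called in all, at 0.21 to 0.30. In a single model of all 14 libraries, where the tissues share 1 estimate of the spread, the value was 0.25 and no longer called (edgeR adjusted p = 0.0917).

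PDGFRA is also made by fibroblasts of the meninges and vessels. The 12 meningeal fibroblast genes measured beside it all had positive fold changes in cKO cerebellum, with a median of 0.36 on the log2 scale, and 3 were called higher: Col1a2, a collagen chain (0.37), Igf2, a growth factor (0.73), and Slc22a6, an organic anion transporter (0.48). Leaving out WT replicate 1 gave 6 calls, and leaving out WT replicate 4, cKO replicate 1 or cKO replicate 3 gave 1. Their summed CPM was 335, 288, 278 and 280 in the cerebellar WT libraries and 458, 397, 442 and 377 in the cKO libraries, also without overlap, and no gene of the list was at 0 in any group. Of the 12 pericyte and mural cell genes 1 was called higher, Rgs5 (0.22), with sums of 200.7 to 212 CPM in WT and 212 to 230 in cKO. In striatum the fibroblast sums were 211, 60.5 and 63.9 CPM in WT and 159, 94.6 and 119 in cKO. The part of these cells in the level of Pdgfra was not tested.

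**Figure D2:**
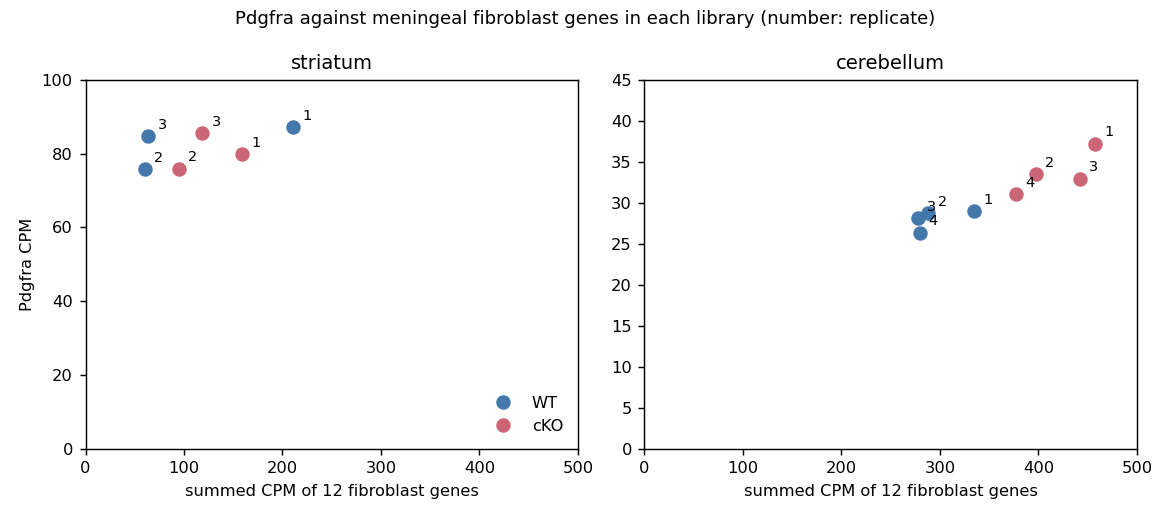
Pdgfra CPM (y axis) against the summed CPM of 12 meningeal fibroblast genes (x axis) in each library, WT in blue and cKO in red, numbered by replicate, with axes from 0. In cerebellum the cKO libraries lie higher than the WT libraries on both axes, and in striatum Pdgfra stays between 75.8 and 87.1 CPM while the fibroblast sum runs from 60.5 to 211.

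Cspg4, the NG2 proteoglycan shared by precursors and pericytes, did not follow Pdgfra past the threshold. Its striatal values were 28.4, 25.0 and 34.6 CPM in WT and 26.6, 22.7 and 28.0 in cKO, and its cerebellar values 9.74 to 10.1 CPM in WT and 9.75 to 11.5 in cKO. The groups overlapped in both tissues, with differences of -0.19 (SE 0.144, edgeR adjusted p = 0.784) and 0.11 (SE 0.0789, edgeR adjusted p = 0.446) on the log2 scale.

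Of the matrix genes, Vcan encodes versican, a large chondroitin sulfate proteoglycan. It stood at 103, 60.8 and 87.7 CPM in WT striatum and at 52.4, 52.6 and 64.2 in cKO striatum. WT replicate 2 fell within the cKO range, so the groups overlapped, and the difference of -0.57 on the log2 scale was not called (SE 0.18, edgeR adjusted p = 0.459). Without WT striatum replicate 1, the library that stood apart, it was -0.39. In cerebellum the Vcan groups covered the same range, at 38.4 to 43.9 CPM in WT and 36.6 to 43.2 in cKO, with a difference of -0.02. Matn4 encodes matrilin-4, an adaptor of the extracellular matrix. It overlapped between genotypes in both tissues, at 7.26 to 8.55 CPM in WT striatum, 6.37 to 9.02 in cKO striatum, 2.31 to 3.23 in WT cerebellum and 2.85 to 3.33 in cKO cerebellum.

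Neu4, a sialidase that trims sialic acid from glycoproteins and glycolipids, also overlapped in both tissues. Its log2 fold changes were 0.12 in striatum (10.5 to 12.4 CPM in WT, 11.7 to 13.2 in cKO) and -0.15 in cerebellum (5.40 to 6.50 in WT, 4.79 to 6.15 in cKO). Lhfpl3, a membrane protein of the tetraspan type, ran from 41.7 to 47.1 CPM in WT striatum and from 40.1 to 49.0 in cKO striatum. Its cerebellar cKO values of 42.6 to 49.6 CPM touched the WT range of 40.1 to 42.9. The cerebellar difference of 0.14 for Lhfpl3 was not called (SE 0.0504, edgeR adjusted p = 0.105).

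The secreted factors of the set had few reads. C1ql1, a secreted protein of the C1q family, had 53 to 77 counts per striatal library and 51 to 134 per cerebellar library. It stood at 5.70, 5.19 and 6.15 CPM in WT striatum and at 4.09, 4.24 and 4.16 in cKO striatum, so that every cKO library was lower than every WT library. The striatal difference of -0.45 for C1ql1 was not called (SE 0.171, edgeR adjusted p = 0.618). In cerebellum C1ql1 was 2.90 to 3.25 CPM in WT and 2.53, 3.08, 5.44 and 2.42 in cKO. There cKO replicate 3 was the highest of all, and the difference of 0.12 became -0.22 without it.

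Bmp4 had 12 to 79 counts per library. Its striatal values were 3.01, 1.33 and 0.958 CPM in WT and 1.70, 1.82 and 1.49 in cKO. The cKO libraries all fell inside the WT range, and the difference of -0.07 became 0.54 without WT replicate 1. In cerebellum Bmp4 was 2.55, 1.69, 2.36 and 1.53 CPM in WT and 3.77, 2.39, 2.31 and 2.82 in cKO. These groups overlapped, with a difference of 0.47 that was not called (SE 0.202, edgeR adjusted p = 0.178).

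Gpr17 and Enpp6 mark successive steps after commitment, and neither was called in the fit within a tissue. Gpr17, a G protein-coupled receptor that is shut off before myelination, was 72.0, 60.2 and 54.9 CPM in WT striatum and 63.8, 68.3 and 60.1 in cKO striatum. The cKO libraries lay inside the WT range, with a difference of 0.04 (SE 0.116, edgeR adjusted p = 0.933). In cerebellum Gpr17 was 13.0 to 14.8 CPM in WT and 12.6, 16.5, 18.5 and 15.9 in cKO. Replicate 1 alone of the cKO libraries fell below the WT range. The cerebellar difference of 0.21 for Gpr17 was not called (SE 0.0977, edgeR adjusted p = 0.215) and was called at 0.30 without that library (edgeR adjusted p = 0.0406). Lims2, which overlaps Gpr17 on the opposite strand, was at -0.04 in striatum and -0.08 in cerebellum and was not called.

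Enpp6 encodes a choline phosphodiesterase found in newly forming oligodendrocytes. In striatum it was 11.7, 10.7 and 9.34 CPM in WT and 6.68, 6.37 and 6.83 in cKO. Every striatal cKO library lay below every WT library, and the difference of -0.68 on the log2 scale was not called in the striatal fit (SE 0.151, edgeR adjusted p = 0.164). Without WT replicate 1 it was -0.60. It was called in the single model of all 14 libraries at -0.67 (edgeR adjusted p = 0.0355). In cerebellum Enpp6 was 9.60, 8.97, 9.61 and 8.36 CPM in WT and 6.60, 6.76, 7.02 and 9.98 in cKO. There 3 of 4 cKO libraries lay below the WT range and replicate 4 above it. The cerebellar difference of -0.26 was not called (SE 0.123, edgeR adjusted p = 0.235), and without cKO replicate 4 it was called at -0.42 (edgeR adjusted p = 0.0166).

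Counted by overlap, 2 of the 10 genes had cKO libraries wholly below WT in striatum (Enpp6 and C1ql1) and none wholly above. Genotypes did not overlap for 15.1% of all striatal genes, 8.2% with cKO below. In cerebellum 1 of 10 had cKO wholly above WT (Pdgfra) and none wholly below, against 14.3% of all genes in either direction, 6.38% with cKO above and 7.96% with cKO below.

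**Figure D3:**
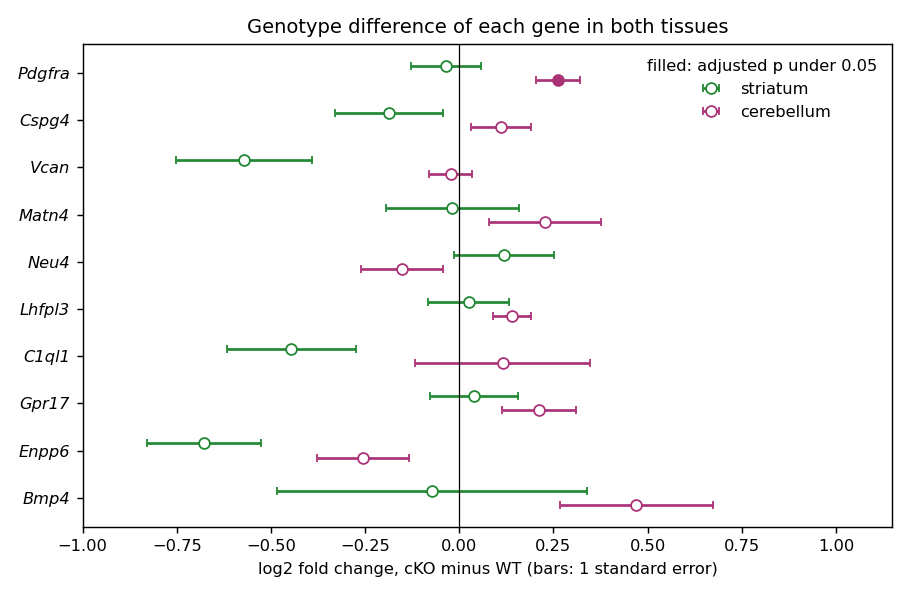
Log2 fold change, cKO minus WT (x axis), of each gene (y axis) in striatum (green) and cerebellum (purple), with bars of 1 SE and filled points where the adjusted p was under 0.05. Pdgfra in cerebellum is the only filled point, and Enpp6, Vcan and C1ql1 in striatum lie farthest to the left.

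The genotype difference was then compared between tissues, by subtracting the striatal from the cerebellar value in 1 model of all 14 libraries. None of the 10 genes was called, against 0.39% of 15401 genes. An unadjusted p under 0.05 was found for 2 members by edgeR (Pdgfra and Vcan), 2 by DESeq2 and 1 by limma-voom. The share of all genes with such a p was 11.6% by edgeR, 11.9% by DESeq2 and 10.1% by limma-voom. DESeq2 and limma-voom called none after adjustment. The difference between tissues was 0.28 for Pdgfra (SE 0.102, edgeR adjusted p = 0.291), 0.53 for Vcan (SE 0.19, edgeR adjusted p = 0.291) and 0.40 for Enpp6 (SE 0.203, edgeR adjusted p = 0.46). Pdgfra was thus called in cerebellum and not in striatum without a called difference between them. For Vcan the difference was called at 0.72 without WT striatum replicate 2 (edgeR adjusted p = 0.0151), the WT library with the lowest Vcan.

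The other genes of the lineage were described by stage, beside a median fold change over all genes of 0.00 in both tissues. In striatum the 10 members had a median log2 fold change of -0.05, with 3 positive and 7 negative values. The 15 mature myelin genes were all negative there, with a median of -0.82, and 6 were called lower, among them Mal (-1.08), Cldn11 (-0.90), Ermn (-0.98) and Mobp (-0.88), which encode proteins of the myelin sheath or its cytoskeleton. Leaving out WT replicate 1 gave 9 calls and WT replicate 3 gave 1, while leaving out cKO replicate 2 gave 2 and cKO replicate 1 or 3 gave 0. Of 12 transcription factors of the lineage 11 were negative, with a median of -0.27, and 1 was called lower, Zeb2 (-0.64), a repressor needed for oligodendrocyte differentiation. Of 11 tested genes of newly formed oligodendrocytes 1 was called lower, Bcas1 (-0.76), and the median was -0.07. Of the 6 fits that left out 1 library, the factors gave 1 call without WT replicate 1 and the newly formed genes 1 without cKO replicate 2, and both lists gave 0 without any other library. The 14 other precursor markers had a median of -0.05 and none was called, with -0.08 for Ptprz1, a receptor phosphatase, and 0.12 for Cspg5, a proteoglycan.

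In cerebellum the members had a median of 0.13, with 7 positive and 3 negative values. The 15 myelin genes were again all negative, with a median of -0.19, and 9 were called lower, led by Fa2h (-0.39), Ermn (-0.28), Mal (-0.37) and Cldn11 (-0.30). Of the lineage transcription factors Gm98, the listed symbol of the myelin regulator Myrf, was called lower (-0.18), with a median of -0.08 over the 12. Of the 14 other precursor markers 2 were called lower, Megf11 (-0.20) and Cspg5 (-0.15), and none higher. Megf11 stood at 261 CPM in WT cerebellum and 19.1 in WT striatum, while Pdgfra stood at 28.0 and 82.5. Which cells hold Megf11 in cerebellum was not tested, so its call is not one on precursors. Several genes of that list are also made by astrocytes. Of 12 astrocyte genes 3 were called higher, among them Gfap (0.81), and 2 lower, S100b (-0.23) and Slc1a3 (-0.20), with a median of -0.02. Of the genes of newly formed oligodendrocytes 1 was called lower, Rnf122 (-0.28). These single calls were sensitive to the libraries: on leaving out 1 library the lineage factors gave 0 to 2 lower (2 without WT replicate 1, 0 without any other). The other precursor markers gave 1 lower without WT replicate 3 or 4 or cKO replicate 1, 2 or 3, and the newly formed genes 0 without WT replicate 3 or 4 or cKO replicate 1 or 2.

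**Figure D4:**
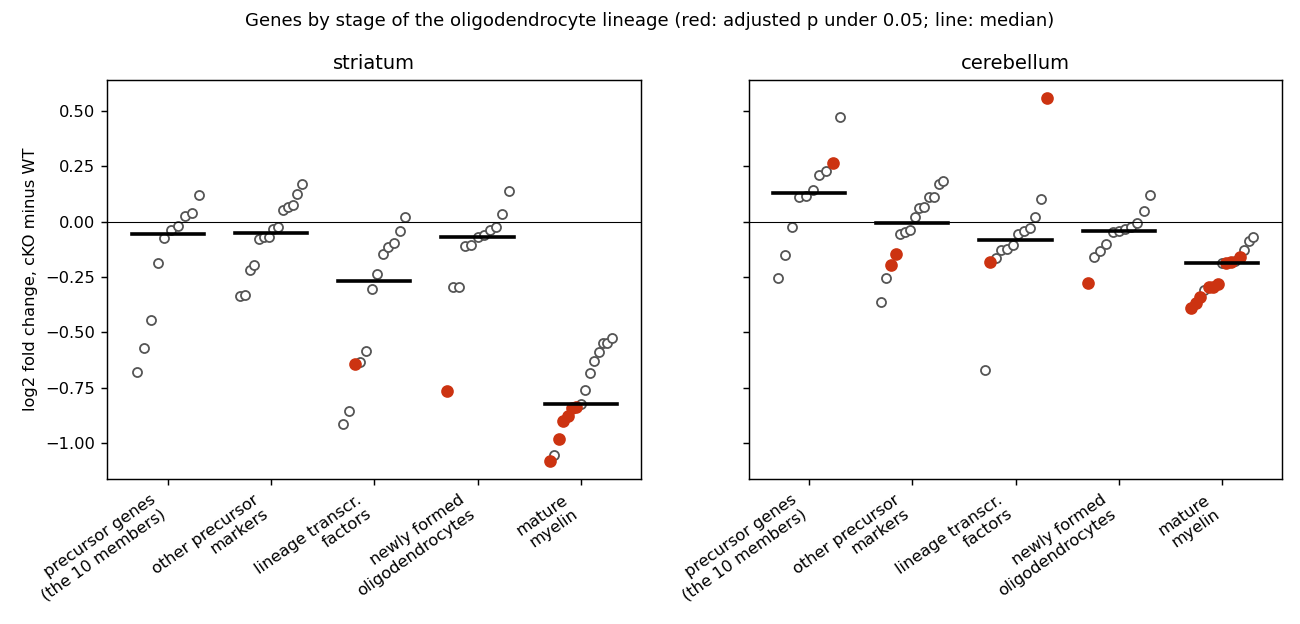
Log2 fold change, cKO minus WT (y axis), of single genes grouped by stage of the oligodendrocyte lineage (x axis) in striatum and cerebellum; red points had an adjusted p under 0.05 and lines are medians. In both tissues all 15 myelin genes lie below 0, while the precursor genes lie on both sides of it.

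The summed level of the 10 genes was 374, 302 and 344 CPM in WT striatum and 305, 297 and 311 CPM in cKO striatum. This is not a level of precursors alone, since Pdgfra and Cspg4 are also made by other cells. Lhfpl3 stood at 41.4 CPM in WT cerebellum and 44.6 in WT striatum, while Pdgfra stood at 28.0 and 82.5. Which cells hold Lhfpl3 in cerebellum was not tested. The striatal sums overlapped, since WT replicate 2 fell among the cKO libraries. In cerebellum they were 152 to 162 CPM in WT and 162.2 to 172 in cKO, with no overlap. Set against the summed myelin genes, the members amounted to 37.9, 37.5 and 38.2 CPM per 1000 CPM of myelin in WT striatum and 58.4, 46.6 and 60.4 in cKO striatum. The cerebellar values were 27.6, 24.3, 24.3 and 24.3 in WT and 30.1, 31.4, 30.0 and 30.7 in cKO. The ratio was higher in every cKO library than in every WT library of its tissue. Since the myelin genes were lower in cKO, the ratio would rise with an unchanged member sum, and it does not show more precursors. In striatum the mean member sum was 340 CPM in WT and 304 in cKO, and the mean myelin sum 8974 and 5586. In cerebellum these means were 156 and 168 CPM, and 6239 and 5495. The ratio is a description without a test, and the sums are led by Vcan, Pdgfra, Gpr17 and Lhfpl3.

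**Figure D5:**
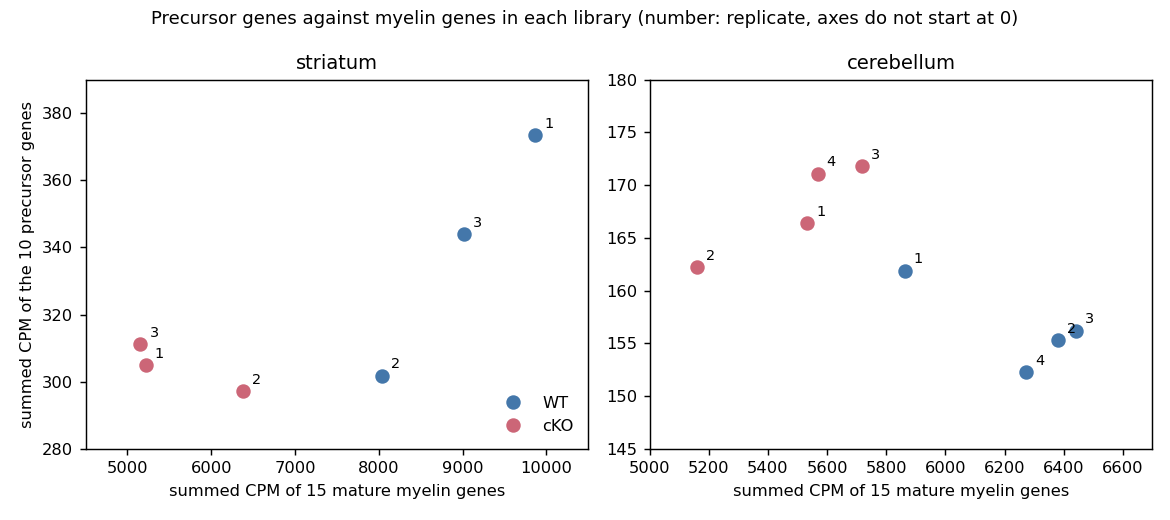
Summed CPM of the 10 precursor genes (y axis) against the summed CPM of 15 mature myelin genes (x axis) in each library, WT in blue and cKO in red, numbered by replicate; the axes do not start at 0 and differ between tissues. The striatal cKO libraries lie at 5156 to 6384 CPM of myelin and the WT libraries at 8041 to 9866, while their precursor sums overlap.

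Genes of the pathways in which members act were counted in the same way. Of 12 genes of PDGF signalling none was called in striatum (Ptpn11, a phosphatase, -0.15, and Crk, an adaptor, -0.08) and 2 were called lower in cerebellum (1 without WT replicate 4), the regulatory subunits of phosphoinositide 3-kinase Pik3r1 (-0.21) and Pik3r2 (-0.17). The ligand gene Pdgfa was at -0.14 there and not called (SE 0.0838, edgeR adjusted p = 0.339). Of the BMP signalling genes none of 22 tested was called in striatum. In cerebellum 3 of 23 were called higher, the ligands Bmp6 (0.46) and Bmp7 (0.51) and the target Id3 (0.35), and 1 lower, the secreted antagonist Chrd (-0.40). Bmp6, Bmp7 and Chrd are made by several cell types, and no level here belongs to precursors alone. The 3 higher BMP calls became 5 without WT replicate 2 and 1 without WT replicate 3 or 4, and the lower ones 2 without cKO replicate 3. The 12 tested genes of chondroitin sulfate matrix held no call in either tissue (1 higher in cerebellum without WT replicate 1), with Bcan, the proteoglycan brevican, at 0.11 in striatum and -0.05 in cerebellum. Of cell cycle genes none of 19 was called in striatum, with 6 positive and 13 negative values. The negative ones included Mki67 (-1.04, edgeR adjusted p = 0.165), Top2a (-1.01, edgeR adjusted p = 0.329) and Ccna2 (-0.99, edgeR adjusted p = 0.097). These had few reads, with mean levels of 5.01, 6.32 and 4.65 CPM. Of the 2 genes of highest CPM in the list, Ccnd2 was at 0.11 and Cdkn1b at -0.16. The summed CPM of the list overlapped, at 389 to 418 in WT striatum and 369 to 424 in cKO striatum. Of 18 tested in cerebellum the replication helicase subunits Mcm2 (0.32) and Mcm3 (0.40) were called higher. Without cKO replicate 1 or 2 no gene of the list was called, and without any other cerebellar library 1 was; leaving out striatal WT replicate 1 gave 3 lower calls of the list in striatum. Among paralogs of the members none of 17 was called in striatum, and Lhfpl2 (-0.32) and Enpp4 (-0.19) were called lower in cerebellum (1 call without WT replicate 2 or cKO replicate 2), and 1 paralog was called lower in striatum without WT replicate 1.

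Between the WT tissues the 10 members were mostly lower in cerebellum. The 14 other precursor markers were split, with 5 called higher there and 6 lower. Among lists of other cell types, all 12 microglia genes were called lower in cerebellum, while of 12 astrocyte genes 9 were called higher and 2 lower. Of the 10 members, 9 were called lower in cerebellum and none higher, against 31.5% of 15031 genes called lower and 32.7% called higher. Tissue cannot be told apart here from library depth, which did not overlap between the tissues, or from any batch of the tissues. The tissues also differ in their cells, and the part of this was not tested. Gpr17 differed most, at -2.34 on the log2 scale (SE 0.107), followed by Cspg4 (-1.72), Pdgfra and Matn4 (-1.71 each), Vcan (-1.21), Neu4 (-1.06) and C1ql1 (-1.02). Enpp6 (-0.37) and Lhfpl3 (-0.26) differed less, and Bmp4 did not pass the threshold (0.05, SE 0.377, edgeR adjusted p = 0.92). The call on Enpp6 was lost in 4 of the 7 fits that left out 1 library, those without striatal replicate 1 or 2 or cerebellar replicate 2 or 4. Mature myelin genes were also mostly lower in cerebellum, with 13 of 15 called lower. Of 11 genes of newly formed oligodendrocytes 7 were called higher and 3 lower. In that list Fam107b stood at 9.69 CPM in WT striatum and 235 in WT cerebellum, and Tmem163 at 3.73 and 70.0, scaled within each tissue. Which cells hold these genes in cerebellum was not tested, so the higher calls are not a measure of this stage. In the cKO libraries the difference between tissues was 0.04 for Enpp6, with the direction turned, and C1ql1 (-0.47, edgeR adjusted p = 0.137) and Lhfpl3 (-0.16, edgeR adjusted p = 0.0651) were no longer called, while Bmp4 was called higher in cerebellum (0.57, edgeR adjusted p = 0.0351).

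Levels of different genes were compared as RPKM, with the union of annotated exons as length and all 14 libraries scaled together. In WT striatum Lhfpl3 was highest at 14.8 ± 0.943 RPKM (SD, n = 3), followed by Gpr17 at 12.8 ± 1.75, and their ranges overlapped. Pdgfra stood at 8.76 ± 0.624, Vcan at 6.17 ± 1.56 and C1ql1 at 4.10 ± 0.354 RPKM. Cspg4 and Neu4 shared the next rank at 2.62 and 2.61 RPKM, as did Enpp6 (1.76) and Matn4 (1.60), and Bmp4 was lowest at 0.836. The order in WT cerebellum was led by Lhfpl3 alone, at 12.3 ± 0.325 RPKM (SD, n = 4). Pdgfra (2.68), Vcan (2.67) and Gpr17 (2.54) followed with overlapping ranges, then C1ql1 (2.03), Enpp6 and Neu4 (1.36 and 1.25), Bmp4 and Cspg4 (0.866 and 0.798) and Matn4 (0.490).

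The members moved together only in part within groups. As a description, the deviation of log2 CPM from the group mean was correlated over the 14 libraries, which share their depth and the group means taken from them. Of 45 pairs 28 were positive, with a median Pearson r of 0.114. The highest was Pdgfra with Matn4 (0.614) and the lowest Cspg4 with Gpr17 (-0.542). Among 13684 genes the 5 most like Pdgfra in this measure were Axin2, Bbs12, Evi2b, Emilin1 and Aass, with r from 0.907 to 0.868. Those most like Vcan were Slc6a6, Slc7a14, Cltc, Fam135b and Wipf3, with r from 0.967 to 0.919. WT striatum replicate 1, the library that stood apart, also had the highest Vcan of its group (103 CPM). The part of that library in these correlations was not tested. None of the other 9 members was among the 5 nearest genes of Pdgfra or of Vcan.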

How the data were processed

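The authors deposited raw read counts per gene symbol, 1 table for each of the 14 libraries. The submitters' processing notes name the build mm10 and the tools STAR, HTSeq 0.6.1p1, cutadapt 1.13 and DESeq2; the annotation and strand setting used are not stated there. Library totals ran from 12595941 to 28099205 counts, which limits precision for Bmp4, C1ql1 and Matn4.

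Genes were filtered with filterByExpr (minimum count 10, minimum total 15), scaled by TMM and tested with edgeR 4.0.16 (R 4.3.3), robust quasi-likelihood, within each tissue, between the WT tissues, and for the interaction. Each SE was derived from the log2 fold change and the square root of F. Alternatives were DESeq2 1.42.0, limma-voom (3.58.1), DESeq2 size factors, other filters, a threshold of 0.1, sex as covariate, a replicate block, all 14 libraries in 1 model, and leaving out each library. The fits were tested on artificial counts with known changes.

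The members and all other lists were chosen with earlier results of these data known. All 10 members are named. Of each other list the called genes are named (at most 4 per tissue, by smallest p) or, with none called, the 2 of highest CPM. Pdgfa, Mki67, Top2a, Ccna2, Fam107b, Tmem163 and Lims2 were named outside this rule, with their values known. One gene that this rule takes is not reported here. Nearest genes were taken for Pdgfra and Vcan, the members of highest mean CPM over all 14 libraries. Correlations used log2 CPM with a prior count of 2.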

Additional observations from a re-analysis of the deposited data

Results flagged for a closer look

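One value was marked by a test for single samples far from the rest of their group (Dixon's, for groups of 4, which marks about 1 in 20 groups by chance). Enpp6 in cerebellar cKO replicate 4 was 9.98 CPM, while the other cKO libraries lay between 6.60 and 7.02 and the WT libraries between 8.36 and 9.61. The 20 cerebellar groups of 10 genes were examined in this way, and the striatal groups of 3 were not. What sets this library apart for Enpp6 was not tested.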

How the results depend on the processing

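The number of members called was 0 in striatum, 1 in cerebellum, 0 for the interaction and 9 between WT tissues. It became 1 in striatum and 0 in cerebellum with all 14 libraries in 1 model. Leaving out each library gave 0 in striatum, 1 to 2 in cerebellum, 0 to 1 for the interaction and 8 to 9 between tissues. Genes called in striatum were 54, and 153 by DESeq2, 186 by limma-voom, 87 at a threshold of 0.1, 376 in the 14-library model and 3 to 122 on leaving out a library. In cerebellum 1121 became 1773 at 0.1, 251 in the 14-library model and 739 to 1165. For the interaction 60 became 232 by DESeq2, 102 by limma-voom, 116 at 0.1 and 17 to 193. Between WT tissues leaving out a library gave 8744 to 10849. The cause was not tested.

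With limma-voom 4 striatal members near 0 changed sign: Pdgfra (0.014), Matn4 (0.076), Lhfpl3 (-0.043) and Bmp4 (0.44). Between tissues in cKO, Enpp6 was 0.035. On leaving out a library the sign turned for striatal Bmp4 (-0.37 to 0.54), Gpr17 (-0.047 to 0.16), Lhfpl3 (-0.035 to 0.11), Matn4 (-0.15 to 0.10) and Pdgfra (-0.093 to 0.0088), cerebellar C1ql1 (-0.22 to 0.26) and Vcan (-0.066 to 0.019), and Bmp4 for the interaction (-0.075 to 0.81) and between WT tissues (-0.25 to 0.67).

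Replicate numbers were not shown to pair the libraries: same-numbered deviations correlated at 0.057 to 0.133 in striatum, where each sample correlated best with its own number, and at 0.057 to 0.34 in cerebellum, where 1 of 4 did. With a replicate block 15 genes were called in striatum, 1246 in cerebellum and 13 for the interaction, and 0, 1 and 0 members. Between WT tissues the block gave 8 members, since Enpp6 was lost (edgeR adjusted p = 0.12).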
